A study of Mus musculus with 72 samples.

Results

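C5ar1, C5ar2 and C3ar1 encode the 3 anaphylatoxin receptors, and their transcripts were followed in mouse melanoma lines in which the gastrin-releasing peptide receptor (GRPR) was stimulated, blocked or absent. The 3 genes were taken by name from the 50600 genes of the count table and read in all 72 libraries. They were chosen by measured values, because C5ar1 had no read in mock-treated cells of line 1057 and had reads there under the ligand GRP or the antagonist RC. The treatment contrasts of these 3 genes in line 1057 are therefore given as a description, with no test, and their tests were read in the other 5 lines.

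The 24 groups were 6 lines by 4 treatments, with 3 libraries each. Seeded cells were starved after 24 h, for 18 h in 0.5% serum, and then kept for 4 h with vehicle (mock, 0.1% DMSO), 10 nM GRP, 1 µM of the GRPR antagonist RC-3095 (RC) or the combination (GRP+RC). Lines 1057 and 1064 came from females with Tyr::NRASQ61K/° and Cdkn2a-/- in which the melanocyte Cre Tyr::CreA/° had given Cdh1dF/dF, and both express Grpr from its own locus. The male line 1181 also had Tyr::NRASQ61K/° and Cdkn2a-/-, no Cre (°/°) and, in its label, Cdh1dF/dF, although the paper counts it as E-cadherin positive. The female line 1014 was labelled with Tyr::NRASQ61K/° alone, and the paper counts it among the lines that express E-cadherin. These 2 lines were used as 1181-Grpr and 1014-Grpr, which hold a CMV::Grpr/tGFP plasmid, and as 1181-Ctrl and 1014-Ctrl, which hold CMV::tGFP. The plasmids were transfected and selected, and the CMV promoter expresses Grpr outside its native control. All 6 lines share the NRAS transgene, and every group was starved and received vehicle or drug. Each line is a single culture line, so a difference between lines cannot be told apart from one between genotypes or sexes, and the labels do not say whether the 3 replicates were separate cultures, so p-values measure the spread between these libraries.

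Anaphylatoxins are small peptides cut from complement proteins when the cascade is active. C5AR1 (CD88) is the signalling receptor for C5a and couples to inhibitory G proteins, driving the migration of neutrophils and macrophages. C5AR2 (C5L2) binds the same peptide, lacks classical G protein coupling and recruits β-arrestin, and C3AR1 is the receptor for C3a. All 3 are best known from myeloid cells.

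Library totals ran from 19512882 to 46862053 counts. Grpr, read as a check of the labels, reached at least 216 counts in every library labelled GRPR positive except the library labelled 1181-Grpr GRP+RC replicate 2, which had 0. In the libraries labelled as controls it had at most 2 counts, except for 1165 in the library labelled 1014-Ctrl mock replicate 2. Each of these 2 libraries held 1 read of C5ar2 and none of C5ar1 or C3ar1, and both stay in the values of their groups below. All 7 melanocyte markers (Mitf, Sox10, Pmel, Mlana, Tyr, Tyrp1 and Dct) were detected in every group, with Dct at a mean of 14839 TPM, so markers of the labelled cell type were present throughout. Their sum ran from 20886 to 51734 TPM in 1181-Grpr GRP+RC and from 23673 to 54801 TPM in 1014-Ctrl mock, the groups of the 2 libraries above. In the other groups it ran from 20224 to 24097 TPM for 1181-Grpr and from 49642 to 56061 TPM for 1014-Ctrl. Whether the 2 libraries were exchanged was not tested.

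The 2 C5a receptor genes are neighbours. In the GRCm38 annotation C5ar2 (ENSMUSG00000074361) lies at chr7:16234585-16244154 and C5ar1 (ENSMUSG00000049130) at chr7:16246743-16259540, both on the minus strand and 2588 bases apart. C3ar1 (ENSMUSG00000040552) lies on another chromosome, at chr6:122847138-122856161, also on the minus strand. The longest run of bases that transcripts of C5ar1 and C5ar2 share is 19, and the runs shared with C3ar1 are 15 and 18, so a read of ordinary length can be assigned to 1 of them. Of the exon bases of C5ar2, 3.57% are overlapped by a gene on the same strand (Gm26473), whereas the exons of C5ar1 and C3ar1 are free of overlap.

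The 250 bases upstream of each RefSeq start (GRCm38.p6) are shown because C5ar1 and C5ar2 had most of their reads under GRP in the same 2 lines, while C3ar1 had 1 read in all. Each is written 5′ to 3′ in the direction of transcription, and capitals mark matches, on either strand, to TGACTCA or TGAGTCA (AP-1), TGACGTCA (CRE), TGGAAA (NFAT) or GGGAC followed directly by TTTCC (NF-kappaB).
C5ar1, chr7:16259339-16259588: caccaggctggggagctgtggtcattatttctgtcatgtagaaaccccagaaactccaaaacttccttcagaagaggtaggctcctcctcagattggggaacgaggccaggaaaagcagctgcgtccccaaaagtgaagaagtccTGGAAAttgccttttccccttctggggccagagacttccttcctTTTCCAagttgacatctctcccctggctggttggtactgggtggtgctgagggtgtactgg
C5ar2, chr7:16244155-16244404: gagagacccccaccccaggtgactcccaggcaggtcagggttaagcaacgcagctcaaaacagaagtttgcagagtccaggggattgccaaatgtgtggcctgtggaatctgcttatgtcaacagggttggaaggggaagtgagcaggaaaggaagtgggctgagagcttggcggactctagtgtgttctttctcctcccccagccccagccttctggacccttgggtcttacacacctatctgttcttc
C3ar1, chr6:122856158-122856407: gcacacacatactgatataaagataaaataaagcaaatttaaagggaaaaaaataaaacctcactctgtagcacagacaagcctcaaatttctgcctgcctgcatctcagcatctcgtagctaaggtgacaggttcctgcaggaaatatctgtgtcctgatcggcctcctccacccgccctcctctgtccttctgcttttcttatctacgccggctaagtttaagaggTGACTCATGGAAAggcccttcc
The C5ar1 window holds 2 NFAT matches, the first 105 bases before the RefSeq start, and no AP-1, CRE or NF-kappaB match. This RefSeq start, at chr7:16259338, lies inside the annotated span of C5ar1, whose upstream end is at chr7:16259540. Most of the window, with both matches, is therefore within the annotated gene. The C5ar2 window holds none of the 4 motifs, and neither does the window of its second RefSeq start, at chr7:16242332-16242581. The C3ar1 window holds an AP-1 match 22 bases before the start, followed directly and without overlap by an NFAT match at 15 bases. Among all 32851 windows of the same length, 18.58% hold the NFAT letters, 4.46% an AP-1 match, 1.55% the CRE and 0.14% the NF-kappaB letters. A match is a string of letters and no evidence of binding, and an absent match says nothing about the factors.

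C5ar1 reads were found mainly in the 2 lines that express Grpr from its own locus. Of 242 reads over the 72 libraries, 143 were in line 1064 and 87 in line 1057, and the 24 libraries of the control lines held 2. In line 1057 the mock libraries had 0, 0 and 0 counts and the GRP libraries 16, 13 and 21. The RC libraries of 1057 had 3, 1 and 2 counts and the GRP+RC libraries 11, 12 and 8. Every treated library of 1057 was thus above every mock library, and the RC libraries lay below all GRP and GRP+RC libraries. In CPM, read counts scaled to library size with TMM factors taken over all libraries, the means were 0.534 ± 0.145 under GRP, 0.325 ± 0.0531 under GRP+RC and 0.0653 ± 0.0313 under RC (SD, n = 3). With mock at 0, the pooled level under GRP was at least 17.2-fold higher, against a floor of 3 counts over the group; it was at least 10.6-fold higher under GRP+RC and at least 2.11-fold higher under RC. The ratio of GRP+RC to GRP was 0.617 (95% counting interval 0.381 to 0.984), with the lowest GRP library at 0.382 CPM and the highest GRP+RC library at 0.380 CPM. Among all genes tested in 1057, 6.46% were called for GRP against mock, 0.888% for RC, 3.47% for GRP+RC and 1.02% for GRP+RC against GRP, by edgeR at an adjusted p below 0.05 with a change of more than 1 in either direction on the log2 scale. In the same order, 57.2%, 35.3%, 50.4% and 34.6% of all genes had an unadjusted p under 0.05 by edgeR. The share of all genes whose groups separate is not given. These contrasts chose the gene, and nothing is read from them beyond the values.

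In line 1064, whose contrasts were not used to choose the genes, C5ar1 was detected before treatment. The mock libraries had 0, 5 and 4 counts and the GRP libraries 39, 44 and 11. The RC libraries had 5, 11 and 1 counts and the GRP+RC libraries 7, 13 and 3. All 3 GRP libraries lay above all 3 mock libraries, while RC and GRP+RC overlapped with mock. For this and the other separations of groups named here, the share of all genes that separate likewise is not given. By edgeR 22.2% of all genes in 1064 had an unadjusted p under 0.05 for GRP against mock. The mean level was 1.45 ± 0.928 CPM under GRP and 0.134 ± 0.132 CPM in mock (SD, n = 3). The pooled level was 11.1-fold higher under GRP than in mock (95% counting interval 5.58 to 24.9).

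The log2 fold change of C5ar1 for GRP against mock in 1064 was 3.46 ± 0.95 (SE), which did not pass the threshold in the fit without a replicate term (edgeR quasi-likelihood test, adjusted p = 0.0571). In this line same-numbered replicates deviated together, and in a fit with a term for the replicate (a block) this contrast was called (log2 fold change 3.34 ± 0.52, adjusted p = 6.08e-04). Of all genes tested in 1064, 2.32% were called without the block and 6.52% with it. DESeq2 on the same genes gave 3.5 with an adjusted p of 0.00778, and one edgeR fit of all 72 libraries gave 3.46 with an adjusted p of 0.00291. Without replicate 1, 2 or 3 the value ran from 2.76 to 3.97, with adjusted p from 0.095 to 0.333. C5ar1 was highest in replicate 2 and lowest in replicate 3 in each of the 3 treated groups. C5ar1 passed the filter on low counts in this line through 4 libraries, 3 of them treated with GRP, so these tests were open to it only through its high group. Without a filter, the fit with the block, which was added after seeing the data, gave 3.34 ± 0.49 (edgeR, adjusted p = 1.19e-05, with 3.7% of all genes called), and the fit without filter or block gave an adjusted p of 0.0562.

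C5ar1 in 1064 had fewer reads under GRP+RC than under GRP, a difference that was called with the block and not without it. The ratio of GRP+RC to GRP was 0.209 over pooled counts (95% counting interval 0.127 to 0.333). The log2 fold change was -2.32 ± 0.84, with an adjusted p of 0.373 without the block and -2.35 ± 0.43 with an adjusted p of 0.00552 with the block (edgeR). With the block and no filter it was -2.34 ± 0.42 (adjusted p = 3.49e-04, with 1.15% of all genes called). Without the block 0.0145% of the genes tested were called for this contrast and with the block 1.93%. RC alone differed from mock by 0.72 ± 1.07 on the log2 scale (adjusted p = 1.00) and GRP+RC by 1.13 ± 1.03 (adjusted p = 1.00), by edgeR without the block. Over pooled counts RC stood at 1.73-fold of mock (95% counting interval 0.73 to 4.41) and GRP+RC at 2.31-fold (1.03 to 5.68). With the filter and all replicates, no gene was called for either contrast in the fit of this line by DESeq2 or by edgeR, with or without the block. By edgeR, 129 and 352 genes had an unadjusted p under 0.05 without the block, and 1245 and 2449 with it. For GRP+RC against mock, edgeR called 5 genes in the fit of all 72 libraries, 2 without replicate 3 and 55 with the block and no filter.

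The 3 replicates of 1064 also differed in other genes. The summed level of the 7 melanocyte markers was 37008 to 38812 TPM in the libraries of replicate 1, against 15019 to 17264 TPM in those of replicate 2 and 19341 to 20202 TPM in those of replicate 3. The summed level of 15 myeloid markers was 66.6 to 74.5 TPM in replicate 2, the replicate with the most C5ar1 reads under each of GRP, RC and GRP+RC, and 25.7 to 30.9 TPM in the others. The part of these differences in the C5ar1 values was not tested. Within each replicate number the GRP library had more C5ar1 than the mock, RC and GRP+RC libraries.

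**Figure D1:**
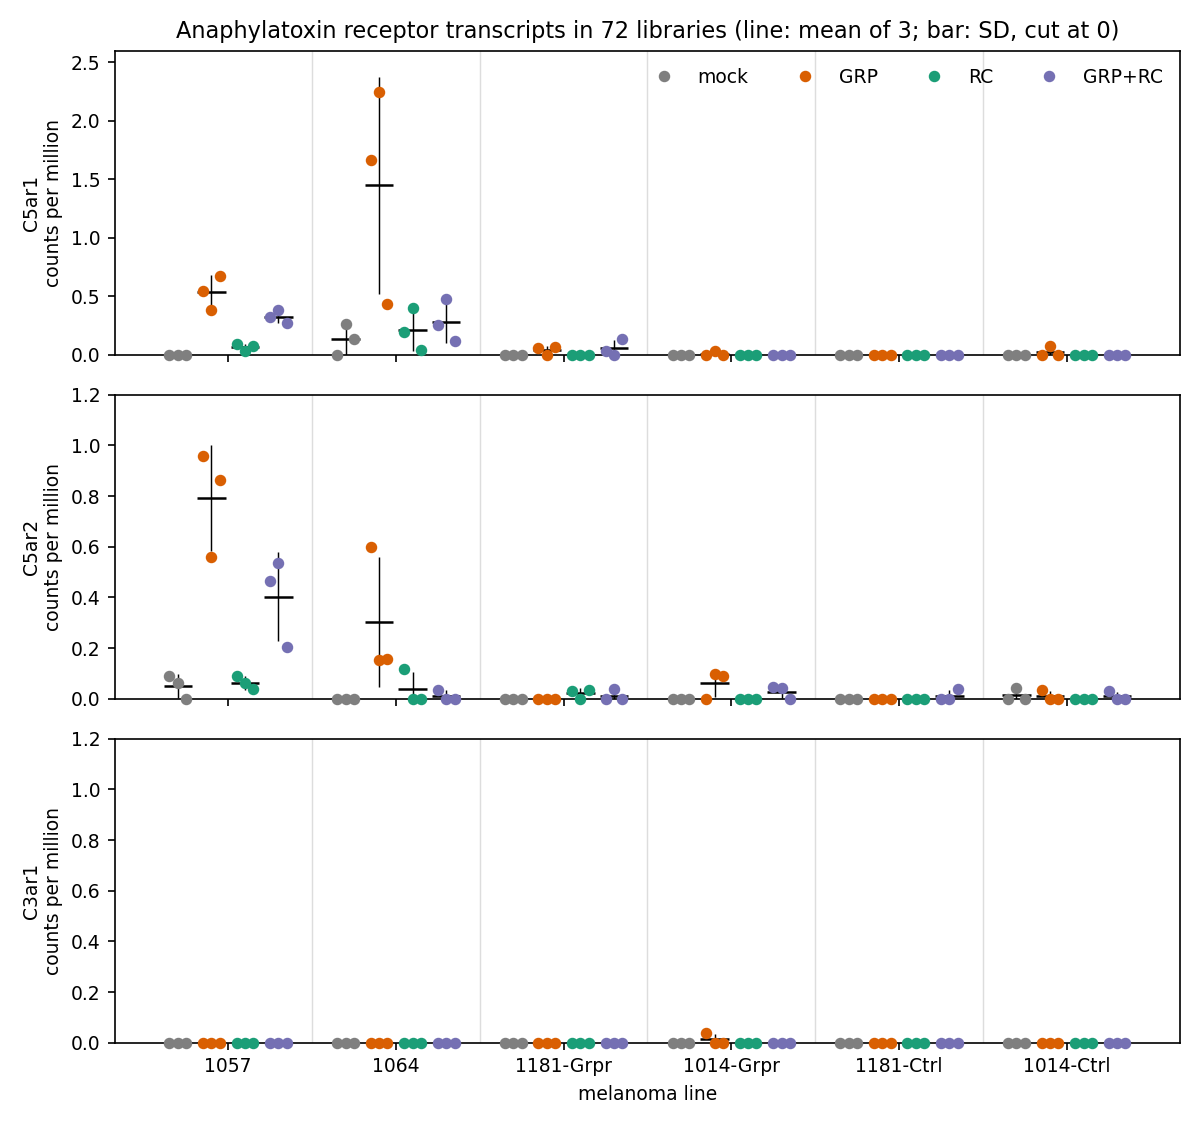
CPM of C5ar1, C5ar2 and C3ar1 (panels, top to bottom) in each of the 72 libraries, by line (horizontal axis) and treatment (colour); dots are libraries, horizontal marks the mean of 3 and vertical bars the SD, cut at 0. C5ar1 reached 2.25 CPM in line 1064 and 0.672 in line 1057 under GRP, C5ar2 was highest in 1057 under GRP, and C3ar1 had 1 read in 1 library.

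In the engineered lines C5ar1 stayed near the limit of detection. In 1181-Grpr the GRP libraries had 2, 0 and 2 counts and the GRP+RC libraries 1, 0 and 4, whereas mock and RC had none. The pooled GRP level was at least 1.23-fold and the GRP+RC level at least 1.77-fold that of mock. In 1014-Grpr there was 1 read in 12 libraries, under GRP. In 1181-Ctrl there was none, and in 1014-Ctrl there were 2, both in GRP replicate 2. C5ar1 passed the filter in none of these 4 lines. The filtered fits therefore gave no test of its contrasts or of the difference between the Grpr and control versions. Alternative fits, with no filter or of all 72 libraries, are not given for C5ar1 in these lines, and a permutation over lines follows below. For a group without a read, the upper end of the 95% counting interval ran from 0.0379 CPM in 1181-Ctrl GRP+RC to 0.052 CPM in 1014-Grpr GRP+RC. This covers counting error alone.

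C5ar2, the receptor next to C5ar1, followed GRP in the same 2 lines but with the lines in the other order. Of its 165 reads, 124 were in 1057 and 25 in 1064. In 1057 the mock libraries had 3, 2 and 0 counts and the GRP libraries 28, 19 and 27. The RC libraries had 3, 2 and 1 counts and the GRP+RC libraries 16, 17 and 6. GRP and GRP+RC libraries lay above all mock libraries, whereas RC and mock overlapped. The means were 0.793 ± 0.209 CPM under GRP, 0.404 ± 0.175 under GRP+RC, 0.0631 ± 0.0271 under RC and 0.0513 ± 0.0469 in mock (SD, n = 3). Pooled counts under GRP were 15.3-fold those of mock (95% counting interval 6.27 to 48.5) and under GRP+RC 8.02-fold (3.16 to 26.1). GRP+RC stood at 0.524 of the GRP level (0.346 to 0.783), without overlap, and RC alone at 1.27-fold of mock (0.322 to 5.25). The shares of all genes in 1057 are those given above for C5ar1.

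In 1064 no C5ar2 read was found in the 3 mock libraries, and the GRP libraries had 14, 3 and 4. The RC libraries had 3, 0 and 0 counts and the GRP+RC libraries 1, 0 and 0. All GRP libraries lay above all mock and GRP+RC libraries. The pooled GRP level, 0.308 CPM (95% counting interval 0.191 to 0.471), was at least 7.41-fold higher than mock, and GRP+RC stood at 0.0407 of GRP (0.000985 to 0.253). C5ar2 did not pass the filter in the fit of line 1064. In one edgeR fit of all 72 libraries, where it passed through 6 libraries of which a single one was of line 1064 and the others of 1057, it was called for GRP against mock (adjusted p = 0.00215) and for GRP+RC against GRP (adjusted p = 0.0216). That fit called 4.11% and 0.795% of its genes for these contrasts. Without any filter in the fit of 1064 alone, the adjusted p was 0.0911 for GRP against mock and 0.503 for GRP+RC against GRP. With the replicate block added it was 0.00652 and 0.0257 (edgeR).

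Outside these lines C5ar2 had few reads. In 1014-Grpr it had 0, 3 and 4 counts under GRP, 1, 1 and 0 under GRP+RC, and none in mock or RC. The GRP level was at least 1.99-fold that of mock, with 1 of 3 libraries at 0. Its adjusted p in the fit of all 72 libraries, which called 2.76% of its genes for this contrast, was 0.104 (edgeR). In 1181-Grpr there were 0 reads under GRP or in mock, 2 under RC and 1 under GRP+RC, the last in the library without Grpr. The 24 control libraries held 4 reads in all, 1 of them in the library labelled 1014-Ctrl mock replicate 2.

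**Figure D2:**
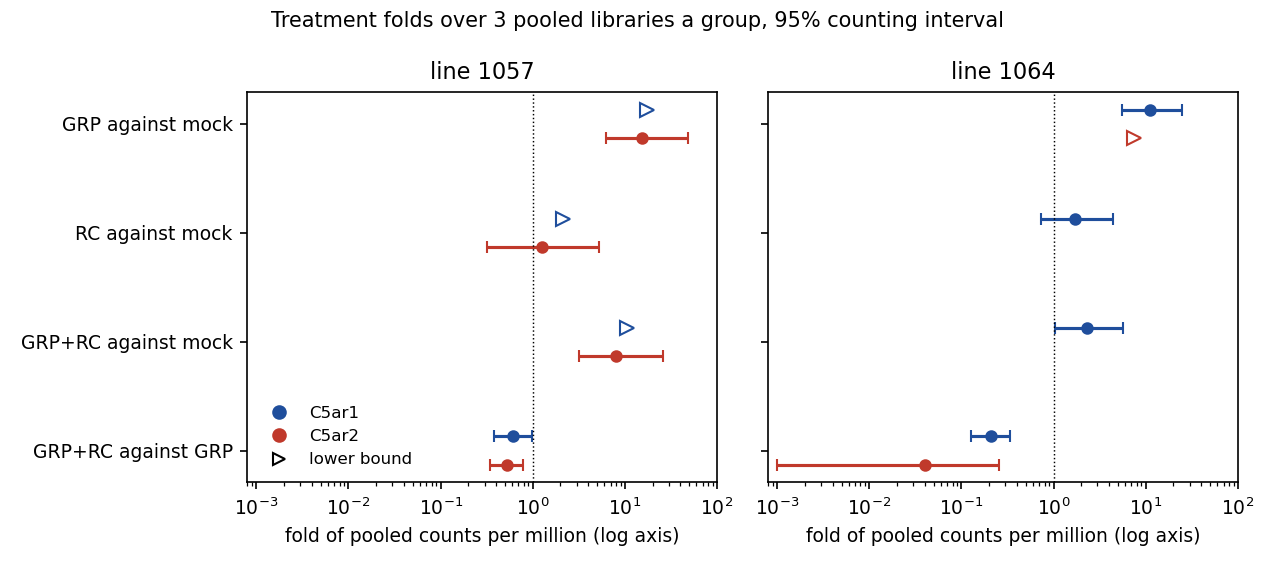
Fold of pooled CPM (horizontal, log axis) for C5ar1 (blue) and C5ar2 (red) in each treatment contrast (vertical) of lines 1057 and 1064; dots carry 95% counting intervals and open triangles are lower bounds against a mock group without a read. GRP folds are at least 17.2 for C5ar1 and 15.3 for C5ar2 in 1057, and 11.1 and at least 7.41 in 1064, and the ratios of GRP+RC to GRP are 0.617 and 0.524 in 1057 and 0.209 and 0.0407 in 1064; C5ar2 has no RC or GRP+RC fold against mock in 1064, where all groups were at or under 3 counts.

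C3ar1, the C3a receptor, was not detected beyond a single read. That read was in 1014-Grpr GRP replicate 1, and the other 71 libraries had 0 counts. The upper end of the 95% counting interval was 0.0378 CPM in mock 1057 and 0.0541 CPM in 1064 under GRP, groups without a read. C3ar1 passed no filter, so the filtered fits gave no test of it. Its values in the permutation below count in the adjustment, but a single read leaves them nothing to show.

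The balance of the 2 C5a receptors was compared in TPM, which is per transcript length. In 1057 under GRP, C5ar1 had 0.607 ± 0.166 TPM and C5ar2 0.65 ± 0.18 TPM (SD, n = 3), and C5ar1 was the higher in 1 of 3 libraries. In 1064 under GRP, C5ar1 had 1.6 ± 1.01 TPM and C5ar2 0.243 ± 0.214 TPM, and C5ar1 was the higher in 3 of 3 libraries. Levels were low throughout: C5ar1 exceeded 1 TPM in 2 libraries, at most 2.45 TPM in 1064 GRP replicate 2, and C5ar2 reached at most 0.8 TPM. In bulk RNA, more cells with the transcript and more transcript per cell cannot be told apart.

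**Figure D3:**
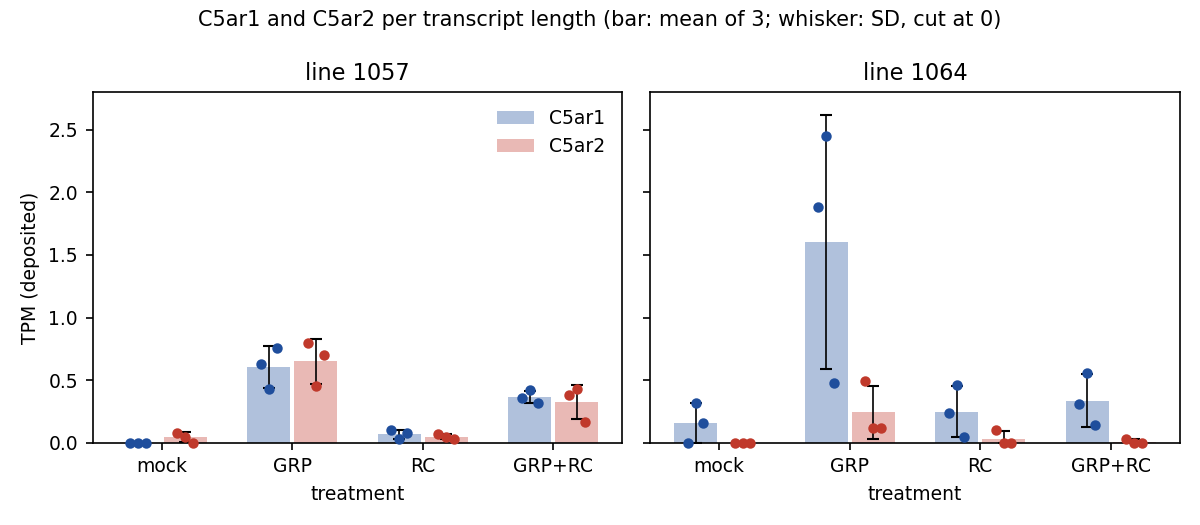
Deposited TPM of C5ar1 (blue) and C5ar2 (red) by treatment in lines 1057 and 1064; bars are means of 3 libraries, dots the libraries and whiskers the SD, cut at 0. The receptors are level in 1057 under GRP (0.607 and 0.65 TPM), and in 1064 C5ar1 (1.6 TPM) stands above C5ar2 (0.243 TPM).

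Ordered by mean level, C5ar1 was highest in 1064 under GRP, then in 1057 under GRP, 1057 under GRP+RC, 1064 under GRP+RC (0.285 ± 0.183 CPM), 1064 under RC (0.211 ± 0.181 CPM), mock 1064, 1057 under RC and 1181-Grpr under GRP+RC (0.0581 ± 0.0711 CPM). Of these neighbours, only GRP and GRP+RC in 1057 did not overlap. For C5ar2 the order was 1057 under GRP, 1057 under GRP+RC, 1064 under GRP (0.304 ± 0.256 CPM), 1014-Grpr under GRP (0.0634 ± 0.0551 CPM), 1057 under RC and mock 1057. Its libraries did not overlap between GRP and GRP+RC in 1057 or between 1064 and 1014-Grpr under GRP, and those of the other neighbours did. Among the 18 mock libraries alone, no member passed the filter, so the filtered fit gave no test between mock lines. Alternative fits of this comparison are not given.

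Over the 3 GRPR-positive lines other than 1057, labels were permuted within lines to compare mean log2(CPM + 1). C5ar1 was higher under GRP than in mock in 3 of 3 lines, with a mean difference of 0.37 (two-sided exact permutation test, p = 0.01, adjusted p = 0.18 over 18 values). Most of it came from 1064 (1.04), with 0.06 in 1181-Grpr and 0.02 in 1014-Grpr. Mock held no C5ar1 read in 1181-Grpr or 1014-Grpr, so a single read under GRP, as in 1014-Grpr, counted as higher. The control line 1014-Ctrl differed by 0.03 under GRP, more than 1014-Grpr. C5ar2 was higher in 2 of 3 lines, by a mean of 0.15 (exact permutation p = 0.02, adjusted p = 0.18). Neither passed after adjustment, in a test that did not use the pairing of replicates in 1064 and 1014-Grpr. The adjustment also counted the values of C3ar1 and of the control lines, which had too few reads to give a low p. The adjusted p therefore depends on the family chosen. For GRP+RC against mock the mean differences were 0.09 for C5ar1 (exact permutation p = 0.13, adjusted p = 0.585) and 0.03 for C5ar2 (p = 0.1, adjusted p = 0.585), and for RC 0.03 for both. In the 2 control lines the mean differences ran from -0.01 to 0.02 for these genes, each with an exact permutation p of 1.00, but with reads in so few libraries the permutations there could hardly give another value.

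The genes around the receptors were read next. None of the 12 protein-coding neighbours within 100 kb was called for GRP against mock in a line other than 1057 by edgeR without a replicate term. With the replicate as a block, which pairs libraries in 1064 and 1014-Grpr, Slc2a3 was called in 1064 (1.70 ± 0.24, adjusted p = 3.61e-04) and Slc8a2, a sodium-calcium exchanger gene, in 1014-Grpr (1.23 ± 0.35, adjusted p = 0.00631). DESeq2 also called Slc2a3 in 1064. In 1064, 5 of the 10 neighbours tested had an unadjusted p under 0.05, in 1014-Grpr 6 of 9, and in 1181-Grpr and both control lines 0. Of all genes tested, 22.2% had such a p in 1064 and 39.9% in 1014-Grpr. The percentage of all genes called, a stricter count, was 2.32% in 1064, 4.01% in 1014-Grpr and 0% in the others. Dhx34, an RNA helicase gene beside C5ar2, differed by 0.39 ± 0.17 in 1064 and by 0.25 ± 0.08 in 1014-Grpr on the log2 scale. Meis3, a homeobox gene, differed by 0.39 ± 0.17 in 1064 and by 1.14 ± 0.19 in 1057, where it was called. Sae1, the most abundant neighbour at a mean of 178 TPM, differed by -0.11 ± 0.12 in 1064. Near C3ar1, Slc2a3, which encodes the glucose transporter GLUT3, was called in 1057 (1.54 ± 0.09) and differed by 1.55 ± 0.45 in 1064 without the block (adjusted p = 0.0693, edgeR), while C3ar1 had no read in either line. Necap1 and Foxj2, the most abundant genes near C3ar1 at means of 54.4 and 33.6 TPM, differed by 0.20 ± 0.14 and -0.05 ± 0.15 in 1064.

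**Figure D4:**
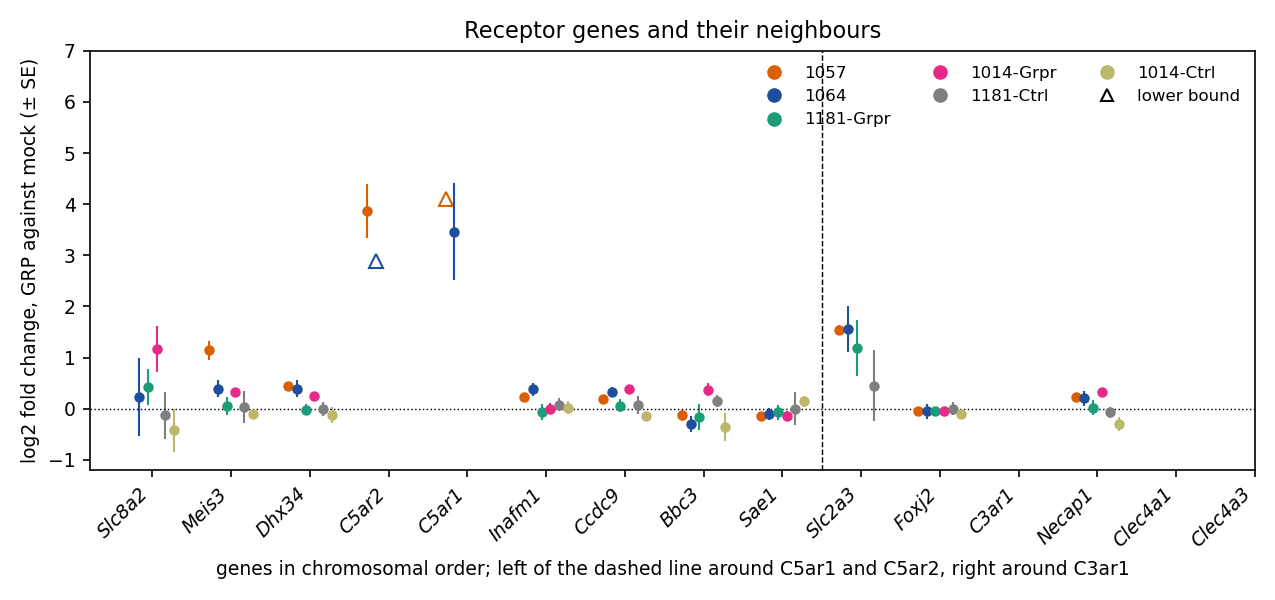
Log2 fold change for GRP against mock (vertical, dots with SE) of the receptor genes and their protein-coding neighbours in chromosomal order (horizontal), for each line (colour); open triangles are the lower bounds for C5ar1 in 1057 and C5ar2 in 1064, and a gene without a point did not pass the filter in that line. C5ar1 and C5ar2 have points in 1057 and 1064 alone. The genes on either side of them lie between -0.42 and 1.16 in the 6 lines. C5ar1 was chosen by its values in 1057 and passed the filter in 1064 mainly through GRP libraries. The height of the receptors over these genes is therefore not read as a result. Near C3ar1 Slc2a3 reaches 1.55 in 1064.

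None of the complement genes that make the ligands was called outside 1057 by edgeR, and neither DESeq2 nor the replicate block called a gene of this or of the next 4 lists in the lines whose replicates paired. Of the 21 genes of the early cascade, 10 were tested in 1064, 8 in 1014-Grpr and 7 in 1181-Grpr, and edgeR called 0 of them for GRP against mock (unadjusted p under 0.05 for 0, 1 and 0). Their median log2 fold changes were -0.13, -0.09 and -0.03, beside -0.02, -0.02 and 0.00 over all genes. Hc, which encodes C5, the precursor of C5a, had 3 reads in mock and 7 under GRP in 1057, and 2 and 0 in 1064. C3, the precursor of C3a, had 6 and 5 reads in 1057 and 30 and 17 in 1064. The most abundant of the list were C4b at a mean of 57.2 TPM, C2 at 23.5 TPM and Cfp, which encodes properdin, at 8.75 TPM. In 1064 they differed by -0.11 ± 0.72, -0.06 ± 0.36 and 0.16 ± 0.17. C4b has a near-identical copy, C4a, and C2 is overlapped by a read-through gene on its own strand, so their counts are less certain. C1ra, a subunit of C1, was lower under GRP in 1057 (-1.55 ± 0.39).

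Of the 6 terminal complex genes, C8g alone was abundant enough to test, at a mean of 4.78 TPM against 0.00528 TPM for C9 and 0.005 TPM for C7, and it was called in no line. Of the 16 regulators, 5 were tested in 1064 and 4 in each of the engineered lines, with 0 called by edgeR (unadjusted p under 0.05 for 0 in 1064 and 1 in 1014-Grpr, beside 22.2% and 39.9% of all genes). Cpm, a membrane carboxypeptidase that trims anaphylatoxins, rose from 39.5 ± 0.452 TPM in mock to 99.3 ± 3.42 TPM under GRP in 1057 (log2 fold change 1.40 ± 0.03), and had 14.0 ± 9.09 and 24.7 ± 17.5 TPM in 1064 (0.94 ± 0.76, adjusted p = 0.532, edgeR without the block). With the block its value in 1064 was 0.9 ± 0.16 (edgeR, adjusted p = 0.00126), below the log2 change of 1 that a call needed. In that fit 51.3% of all genes had an unadjusted p under 0.05. Cd59a (98.8 TPM) and Cr1l, regulators that protect cells from complement, differed by -0.14 ± 0.75 and -0.06 ± 0.17 in 1064.

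The other complement receptors and the signalling partners were likewise uncalled outside 1057. Calr (1311 TPM), C1qbp (118 TPM) and Cd93 (33.5 TPM), which bind C1q, were the 3 of 8 tested in 1064, with log2 differences of 0.57 ± 0.18, -0.05 ± 0.22 and 0.59 ± 0.85. With the block these were 0.56 ± 0.07 (adjusted p = 2.64e-04), -0.05 ± 0.05 (adjusted p = 0.502) and 0.81 ± 0.17 (adjusted p = 0.00359), by edgeR. Of 12 genes for the G proteins, arrestins and kinases downstream of C5AR1, 8 were tested in 1064 and 0 were called (2 with an unadjusted p under 0.05, beside 22.2% of all genes). Gnai2 (574 TPM), an inhibitory G protein subunit to which C5AR1 couples, differed by 0.04 ± 0.17 in 1064, Gnai3 (161 TPM) by 0.48 ± 0.13 and Plcb3 (102 TPM) by -0.06 ± 0.12. With the block these were 0.04 ± 0.04 (adjusted p = 0.509), 0.48 ± 0.06 (adjusted p = 2.92e-04) and -0.06 ± 0.05 (adjusted p = 0.331), by edgeR. In 1014-Grpr, 8 were tested and 0 called (3 with an unadjusted p under 0.05, beside 39.9% of all genes). None of 9 related chemoattractant receptors, such as the formyl peptide receptor genes Fpr1 and Fpr2, passed the filter in any line, and the highest mean was 0.0665 TPM for Ptgdr2.

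Because the receptors are known from myeloid cells, 15 myeloid markers were read beside them. In 1057 their summed level was 67.4 to 78.1 TPM in mock and 73.6 to 77.8 TPM under GRP, and in 1064 it was 25.8 to 67.6 and 25.7 to 66.6 TPM, so the ranges overlapped. Adgre1, Fcgr1, Tyrobp and Aif1 had 0 reads in the 12 libraries of 1057, and Ptprc, which encodes CD45, had 42. Lyz2, Laptm5 and Cd68 made up most of the reads there, with 9136, 3835 and 1217. Cd53 and Fcer1g had 451 and 198 reads in 1057, and 543 and 273 in 1064. In the libraries of 1064, Fcgr1 and Tyrobp had 0 reads, Adgre1 had 1, Ptprc 2, Aif1 4, Spi1 14 and Csf1r 18. Cd68, a lysosomal gene, was called for GRP in 1057 (1.99 ± 0.14) and in 1014-Grpr (1.33 ± 0.30, adjusted p = 0.00543, edgeR, called in 6 of 8 alternatives with values from 0.89 to 1.69), and differed by 0.79 ± 0.44 in 1064. The melanocyte marker sum of 1057 was 17826 to 18753 TPM in mock and 16700 to 16975 TPM under GRP. Of 5 lymphoid markers, 4 never exceeded 3 counts in a library, and at most 1 of 4 endothelial and 1 of 3 keratinocyte markers passed the filter in any line other than 1057, with 0 called by edgeR or DESeq2 (0 with an unadjusted p under 0.05).

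The genes whose level was most like a receptor's were ranked by Pearson r of mean log2 CPM over the 24 groups, among 16596 genes and as a description, since groups of a line share its genotype and the mock libraries. For C5ar1 these were C2cd4b (r = 0.968), Rorb (0.965) and 1700016P03Rik (0.960). C2cd4b had 2 reads in mock and 185 under GRP in 1057, and 32 and 325 in 1064. Rorb, a nuclear receptor gene, had 38.5 ± 0.877 and 130 ± 4.8 CPM in 1057 and 62.7 ± 28.0 and 153 ± 57.1 CPM in 1064. After the mean of each line was removed they were Rorb (0.974), Adcy6 (0.966) and Uap1 (0.961). For C5ar2 they were Mmp10 (0.947), Avpi1 (0.943) and C430002N11Rik (0.943). Within lines they were Ccr1 (0.970), Sel1l (0.970) and Mcfd2 (0.963). Ccr1, another chemoattractant receptor gene, had 0.0721 ± 0.0996 CPM in mock and 1.16 ± 0.0916 CPM under GRP in 1057, and 0.42 ± 0.337 and 1.56 ± 0.681 CPM in 1064.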

How the data were processed

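Polyadenylated RNA was sequenced from 72 libraries of 6 mouse melanoma lines as stranded paired-end TruSeq libraries. The authors aligned reads with STAR to mm10 (GRCm38.p5, GENCODE M13) and deposited raw counts per gene and TPM; FastQC 0.11.5 is named in the submitters' notes. TPM of line 1057 were deposited with a decimal comma, read as a point. Symbols came from GENCODE M21, in which 99.6% of the gene identifiers were found. The 3 members, the gene lists and the tests were chosen with earlier results of these data known.

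Counts were analysed with edgeR 4.0.16 (filterByExpr with a minimum count of 10, TMM, quasi-likelihood F test, 1 fit per line, Benjamini-Hochberg over all genes tested). Calls needed an adjusted p below 0.05 and a change of more than 1 in either direction on the log2 scale. Standard errors are the log2 fold change divided by the root of F. Where a member was filtered out, its counts are given. Pooled counts carry exact 95% Poisson or conditional intervals, which cover counting error only; a group without a read was set to a floor of 3 counts. CPM were scaled by TMM over 72 libraries. Line-wise exact permutation used a pseudocount of 1 CPM. Alternatives were DESeq2 1.42.0, RLE factors, no filter, a replicate block, left-out replicates, libraries and lines, 1 fit of all libraries, raw-total CPM, TPM and a pseudocount of 0.5 CPM, and, added after seeing the data, the block with no filter in 1064. The edgeR, DESeq2 and permutation steps were tested on simulated data. The study's own test was DESeq2 after an edgeR filter.

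The replicate numbers were taken to pair libraries where every same-numbered pair within a line deviated together with a correlation above 0.1. This held in 1064 (lowest 0.583), 1014-Grpr (0.386) and 1181-Ctrl (0.74), and not in 1057 (-0.154), 1181-Grpr (-0.0148) or 1014-Ctrl (0.0766). No 2 replicates agreed within sampling noise (smallest chi-square per degree of freedom 2.56). Genes named beside the members were those of fixed lists called in at least 2 lines other than 1057, of which there was none besides Grpr, the 3 most abundant of each list, the neighbours, and the 3 most like each member; Hc, C3, C1ra, Cpm, Cd68, Ptprc and other single markers were named after their values were seen. Protein sequences were not analysed here, and 1 gene that this rule names is not reported here.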

Additional observations from a re-analysis of the deposited data

How the results depend on the processing

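In 1064, 34 of 40 alternative values of C5ar1 kept their direction and side of the threshold, and in 1057, where no test was read, 40 of 43 moved by less than the error. In 1064 the log2 fold change of C5ar1 for GRP against mock passed the threshold with DESeq2 (3.5), with the replicate block (3.34) and in one fit of all 72 libraries (3.46), and that for GRP+RC against GRP passed with the replicate block (-2.35). Both also passed with the replicate block and no filter, a pair of choices made after seeing the data (3.34 and -2.34); without a filter the block also brought C5ar2 past the threshold for both contrasts, and among the neighbours it added Slc2a3 in 1064 and Slc8a2 in 1014-Grpr. It moved the genes called in 1064 from 320 to 900 for GRP against mock and from 2 to 266 for GRP+RC against GRP, or to 936 and 290 with no filter as well; DESeq2 gave 491 and 58, the fit of all libraries 682 and 132, no filter 12 for the latter, and leaving out replicate 1 or 2 gave 0 for both, and leaving out replicate 3 gave 0 for the latter. In 1057 the C5ar2 values without a replicate ran from 3.25 to 4.37 for GRP against mock and from -1.41 to -0.6 for GRP+RC against GRP. The fit of all libraries called 15 in place of 126 genes for RC, 265 in place of 493 for GRP+RC and 7 in place of 145 for GRP+RC against GRP in 1057, where DESeq2 called 86. For 1014-Ctrl, whose mock group holds the library with Grpr reads, the fit of all libraries called 394 genes for RC in place of 0, and nearly as many for GRP and GRP+RC. Without the library that had no Grpr and with the block, 16 in place of 0 genes were called for GRP in 1181-Grpr. The causes were not tested. All 171 alternative permutation values stayed on the same side, where no main value had passed. Those of C3ar1 and of the control lines had too few reads to give another outcome. Depth is a limit: most groups hold under 10 reads of a member.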
